A study of Mus musculus with 2 samples.

Results

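The 31 genes described here are established transcriptional targets of the tumour suppressor p53, taken as a list of gene symbols with no threshold on a measured value, although the list was drawn up with earlier results of these data known. They were read on the 39 probes whose RefSeq accession names one of them, out of 20660 named genes and 55680 probes on the array. The cells were pre CFU-E, the erythroid progenitors sorted by c-Kit, endoglin and CD150, with CD41Lo and FCgRII/III-/Lo staining and without Sca1 or lineage markers, from the marrow of femora and tibiae. One group came from WT mice and the other from ESAM-KO mice, which lack the endothelial cell-selective adhesion molecule, all of the C57BL/6 strain. Every mouse of both groups had received 1 injection of 5-fluorouracil (5-FU) at 120 mg/kg and was killed at day 8. The mice of the study were aged between 8 and 12 weeks. RNA of the pooled mice of a genotype was amplified, labelled with Cy3 and hybridised to 1 Agilent array, so there is 1 sample per genotype, no replicate, no SD and no test. A difference between the arrays therefore cannot be told apart from one between the sorts, the amplifications or the pooled mice. No array of untreated mice is in the comparison, so what follows compares genotypes after 5-FU and does not measure the response to the drug itself.

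The p53 protein is a transcription factor that is stabilised when DNA is damaged or when nucleotides run short. 5-FU, a pyrimidine analogue, brings about both by blocking thymidylate synthesis and by entering RNA and DNA. The targets of p53 halt the cell cycle, help repair DNA, adjust metabolism and, where the damage persists, start apoptosis, and some of them switch p53 off again. In the erythroid lineage, strong p53 activity is known to arrest progenitors and to cause anaemia.

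The values are the processed intensity of each spot, in arbitrary units and corrected for background within the array. The 75th percentile of that intensity was 201.4 for WT and 251.1 for ESAM-KO, and the spots well above background made up 57.3% and 61.1%. Each log2 ratio, which divides ESAM-KO by WT, was taken after setting both arrays to their 75th percentile, which lowers it by 0.32 against unscaled intensities. The error given with a ratio is the scanner software's own, and covers neither the pools nor the amplification. The targeted gene, Esam (NM_027102), read 27.4 (WT) and 20.6 (ESAM-KO), a log2 ratio of -0.73, close to the lowest signals above background, so that it checks the genotype labels only weakly. All 15 erythroid markers with a probe were above background on both arrays. So were all 10 neutrophil markers, and each of these was lower in ESAM-KO, their summed intensity being 59861 (WT) and 10032.1 (ESAM-KO) and their median log2 ratio -3.36. The summed intensity was also lower for 8 B cell markers, at 586.9 and 233.1, and for 7 markers of mast cells, basophils and eosinophils, at 1612 and 199.5. Most of the latter sum came from Prg2, at 1223 (WT) and 112.8 (ESAM-KO), and Epx, at 295.7 and 19.5, so it does not speak for all 7. Among the 7, 3 were lower and 3 had no ratio. Ms4a2 went the other way, from 3.17 in WT, not above background, to 40.9 in ESAM-KO. The sort had gated out cells with lineage markers, and in such bulk RNA fewer cells of a type and less RNA per cell cannot be told apart. The part of these cells in the values below was not tested.

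Of the 31 genes, 24 exceeded background clearly on both arrays and 2 on 1 array only. The remaining 5 (Fas, Eda2r, Plk2, Epha2 and Tigar) were not well above background on either and have no ratio. For the pair read on 1 array, Dram1 and Gdf15, the ratio is a bound, in which the bright signal is divided by a ceiling for the dim one, namely the dimmest signal above background on that array, or the probe's own reading where that is larger. Such a gene has a ratio only because it differed, so counts are also given over the 24. The log2 ratio was above 0 for 17 of the 26 genes with a ratio, where 50.1% of all 14136 named genes with a ratio lay above 0. It was above 0 for 16 of the 24, where 48.5% of all genes above background on both arrays lay above 0. The median log2 ratio was 0.37 over the 26 genes and over the 24, beside 0.00056 over all genes with a ratio and -0.019 over all genes above background on both arrays. By the 2-fold criterion, 1 gene was higher in ESAM-KO (Perp) and 1 was lower (Dram1), beside 6.99% and 8.43% of all genes. Over the 24 these counts were 1 and 0, beside 5.22% and 7.37% of all genes above background on both arrays. A 1.5-fold criterion gave 9 higher, with the bound of Gdf15 among them, and 3 lower, with that of Dram1, beside 15.6% and 17.6% of all genes. Without scaling between the arrays, 6 of the genes were higher by more than 2-fold and 1 lower, beside 12.7% and 5.12% of all genes. The plot of intensities by gene shows which probes were above background on which array.

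**Figure D1:**
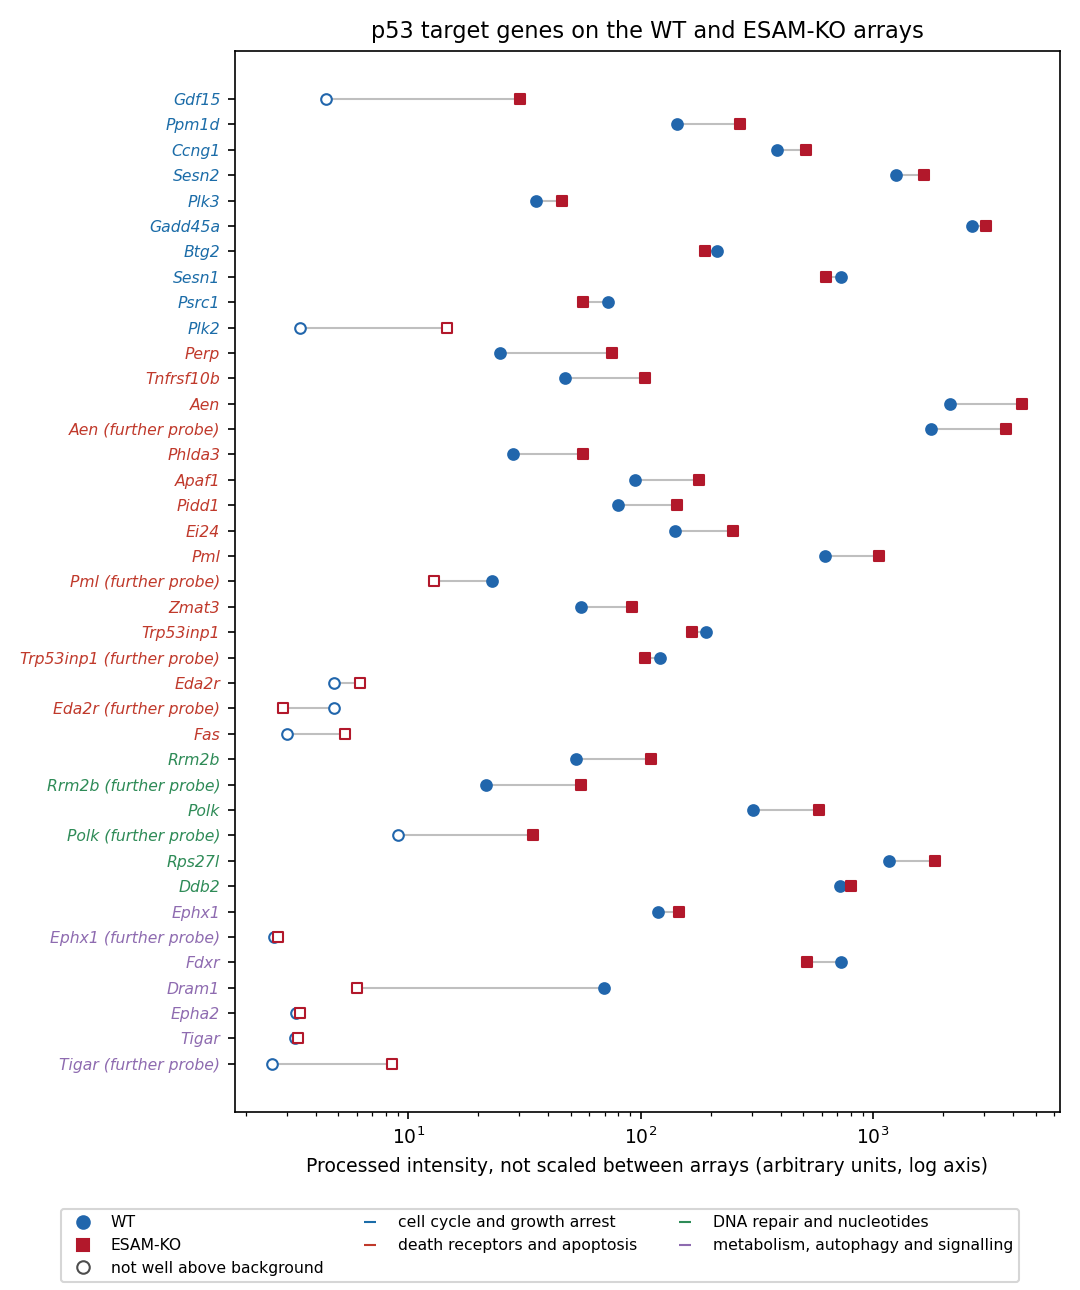
Processed intensity of every probe of the 31 p53 target genes (log axis, arbitrary units, not scaled between arrays) for WT (circles) and ESAM-KO (squares), with open symbols where the probe was not well above background and gene names coloured by role. Dram1 is bright in WT and open in ESAM-KO, Gdf15 is the reverse, and both probes of Aen lie further right in ESAM-KO.

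p53 binds DNA through a response element made of a pair of half-sites, each of 10 bases, with 3 purines, a C, 2 A or T bases, a G and 3 pyrimidines. This p53 half-site consensus reads the same on both strands. It was searched in the RefSeq promoters (build GRCm38.p6, 250 bases before to 50 bases after a transcription start), which held 25 of the 31 genes. Trp53inp1, Zmat3, Perp, Tnfrsf10b, Ddb2 and Rrm2b had no entry. An exact match lay in the promoter of 9 of the 25 genes, or 36%, beside 9.55% of all 27025 genes with a promoter. The matches are shown because the half-site is the unit of the element that p53 recognises, although a single half-site is not that element. The half-site stands in capitals with 10 bases on either side, read 5′ to 3′ on the strand of the gene.

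Aen, chr7:78895927-78895956, plus strand: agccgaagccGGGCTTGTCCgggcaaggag
Ccng1, chr11:40755452-40755481, minus strand: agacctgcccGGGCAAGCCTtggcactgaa
Ei24, chr9:36797325-36797354, minus strand: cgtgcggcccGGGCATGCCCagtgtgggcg
Gadd45a, chr6:67037428-67037457, minus strand: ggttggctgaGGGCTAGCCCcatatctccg
Pml, chr9:58249911-58249940, minus strand: cccgcatgccGGGCTTGTTTacttgcttgt
Polk, chr13:96519399-96519428, minus strand: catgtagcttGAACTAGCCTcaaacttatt
Ppm1d, chr11:85311112-85311141, plus strand: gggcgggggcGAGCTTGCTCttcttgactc
Rps27l, chr9:66946193-66946222, plus strand: ctttgggctcGGGCTTGCTTtccttcaggc
Rps27l, chr9:66946296-66946325, plus strand: gggcttgttgAGACTTGTCCgggcgacacg
Sesn1, chr10:41887256-41887285, plus strand: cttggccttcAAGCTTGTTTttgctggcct

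In Ccng1 and at the second site of Rps27l, the 10 bases directly beside the capitals differ from the consensus at 1 position, so that a complete element of 20 bases lies there but for 1 base. A match of letters is a description and not a site shown to be bound, and no match says only that the letters are not in this window. All 9 genes with the half-site had a ratio, 7 of them above 0, with a median log2 ratio of 0.45 and a range from -0.53 to 0.72. The 11 genes with a ratio whose promoter window lacked it had 6 above 0, a median of 0.05 and a range from -2.71 to 0.95. Among all named genes with a ratio, 50.1% lay above 0. The genes without a promoter entry are in neither set, with log2 ratios of 1.27 (Perp), 0.83 (Tnfrsf10b), 0.76 (Rrm2b), 0.41 (Zmat3), -0.16 (Ddb2) and -0.52 (Trp53inp1). Whether the ratio goes with the half-site was not tested.

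**Figure D2:**
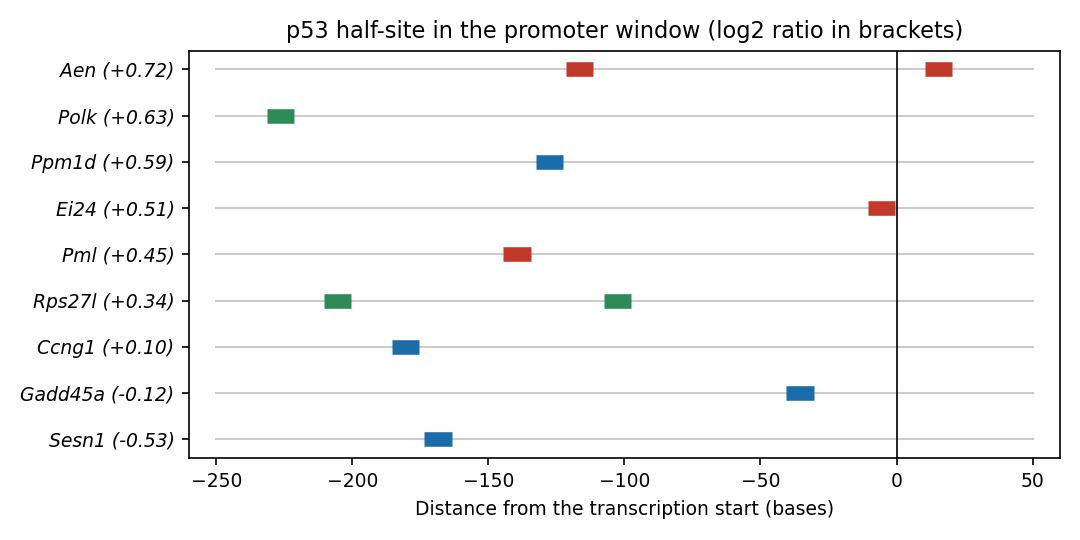
Position of the exact p53 half-site (coloured blocks) in the promoter windows of 9 p53 target genes, as the distance in bases from the transcription start at 0, with each gene's log2 ratio in brackets and colours by role as in the plot of ratios. Aen carries 1 site that is seen from 2 transcription starts, Rps27l carries 2 sites, and the genes run from 0.72 for Aen to -0.53 for Sesn1.

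The role groups used from here on were also formed with earlier results known, so that differences between them are a description only. The genes of death receptors and apoptosis lay mostly on one side. Of the 12 genes in this group, 10 were above background on both arrays and 9 of these were higher in ESAM-KO, with a median log2 ratio of 0.57. Among all genes above background on both arrays, 48.5% were higher. Perp (NM_022032), a membrane protein of the apoptotic response that also belongs to desmosomes, read 24.9 (WT) and 74.9 (ESAM-KO). This is a log2 ratio of 1.27 with an error of 0.28, or 2.42-fold higher, and it was the only one of the 24 genes past 2-fold. Both signals were dim, and with normexp background correction, which shrinks ratios of dim probes, Perp stood at 0.44. Tnfrsf10b (NM_020275), the mouse death receptor for TRAIL, read 47.1 (WT) and 104.7 (ESAM-KO), a log2 ratio of 0.83 ± 0.23 (scanner error). Fas, the other classical death receptor, read 5.32 in ESAM-KO and still less in WT as the mean of its 2 spots, and Eda2r, a receptor of the same family, at most 4.80 and 6.19, none of them well above background.

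Inside the cell, Aen (NM_026531), an exonuclease that enhances apoptosis, was read by 2 bright probes. The first gave 2132 (WT) and 4380.2 (ESAM-KO) and the second 1778 and 3715, with log2 ratios of 0.72 and 0.74 and an error of 0.20 each. The probes thus differed from each other by less than the scanner error, and both lay above 0 by more than it. Apaf1, the scaffold of the apoptosome, read 94.2 and 178.2, a log2 ratio of 0.60. Pidd1, the core of the complex that activates caspase-2, read 79.7 and 143.9, a log2 ratio of 0.53. Phlda3, which restrains Akt signalling, read 28.2 (WT) and 56.4 (ESAM-KO), a log2 ratio of 0.68 with an error of 0.26. These 3 genes were higher in ESAM-KO by less than 2-fold.

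Ei24, a protein of the endoplasmic reticulum, read 140.1 (WT) and 249.6 (ESAM-KO), a log2 ratio of 0.51. Zmat3, an RNA-binding zinc finger protein, read 55.2 and 91.5, a log2 ratio of 0.41. Pml, which builds nuclear bodies that modulate p53, was read in opposite directions by its probes. The brighter gave 621.3 (WT) and 1059 (ESAM-KO), a log2 ratio of 0.45, whereas the dimmer gave 22.9 in WT and was not well above background in ESAM-KO, at least 2.17-fold lower. Trp53inp1, a nuclear protein that promotes phosphorylation of p53, was the exception to the group. Its probes read 190.8 and 121.3 in WT and 165.6 and 104.4 in ESAM-KO, with log2 ratios of -0.52 and -0.53. Under 9 of the 10 other ways of processing that were tried, 9 genes of this group or more were above 0, and 8 of 10 were when the probes of a gene were averaged. The share of all genes above 0 ran from 40.8% to 71.0% over the same settings.

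**Figure D3:**
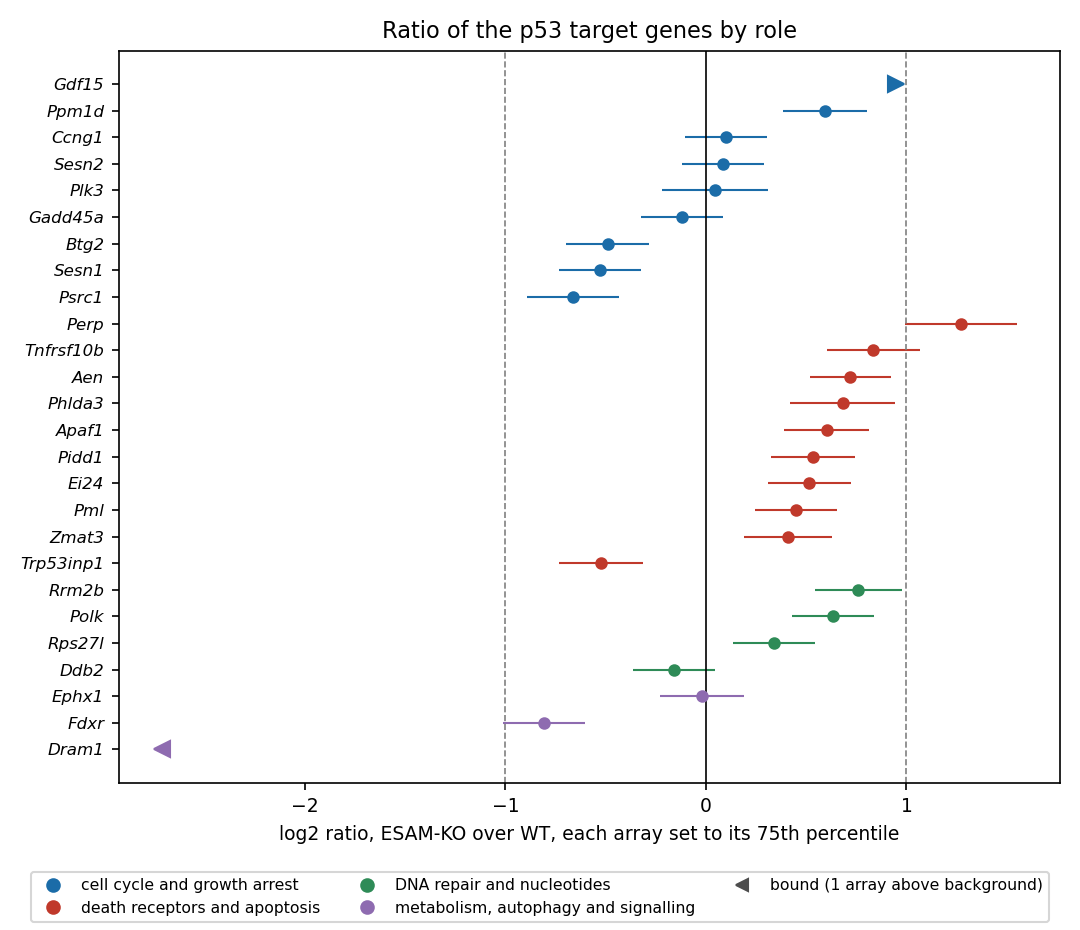
Log2 ratio of ESAM-KO over WT for the 26 p53 target genes with a ratio, each array set to its 75th percentile, grouped and coloured by role; bars are the scanner software's error and triangles are bounds, with dashed lines at 2-fold. The apoptosis group lies right of 0 except Trp53inp1 at -0.52, whereas the cell cycle group runs from -0.66 to a bound of 0.95.

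The genes of cell cycle and growth arrest lay on both sides of 0. Of the 10, 9 had a ratio, 5 above and 4 below 0, with a median log2 ratio of 0.05 and none past 2-fold. Over the 8 measured on both arrays it was 4 above and 4 below. Ppm1d, the phosphatase Wip1 that switches off p53 signalling, was the highest of the 8, with 142.8 (WT) and 268.6 (ESAM-KO) and a log2 ratio of 0.59 ± 0.21 (scanner error). Ccng1, cyclin G1, which also feeds back on p53 through Mdm2, read 385.6 and 514.5, a log2 ratio of 0.10, within the error of 0.20. Sesn2 and Sesn1 encode sestrins, stress proteins that restrain mTORC1. Sesn2 read 1257 (WT) and 1663 (ESAM-KO), a log2 ratio of 0.09, and Sesn1 read 728.0 and 629.9, a log2 ratio of -0.53 with an error of 0.20. The ratios of the pair thus stood apart by more than the scanner error of either. The half-site shown above lies in the promoter of Sesn1, and the window of Sesn2 held no match.

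Btg2, an antiproliferative gene, read 213.4 (WT) and 189.6 (ESAM-KO), a log2 ratio of -0.49. Gadd45a, which slows the cell cycle and takes part in repair, was bright on both arrays, at 2654 and 3050.1, with a log2 ratio of -0.12 within the error of 0.20. Plk3, a stress-responsive kinase, read 35.6 and 45.8, a log2 ratio of 0.05, and its relative Plk2 read 3.42 (WT) and 14.7 (ESAM-KO), neither well above background. Psrc1, a microtubule-associated protein, read 72.0 and 56.6, a log2 ratio of -0.66. Gdf15, a secreted growth differentiation factor, read 4.43 in WT, where it was not above background, and 30.3 in ESAM-KO, at least 1.93-fold higher. The count above 0 was 2 of 9 with median scaling and 6 of 9 without scaling, where the share of all genes above 0 was 40.8% and 71.0%, since these scalings shift every gene alike.

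Of the 4 genes of DNA repair and nucleotide supply, 3 were higher in ESAM-KO, all by less than 2-fold at the brightest probe. The share higher was 48.5% among all genes above background on both arrays. Rrm2b, the p53-inducible subunit of ribonucleotide reductase that supplies deoxynucleotides outside S phase, read 52.7 (WT) and 111.3 (ESAM-KO), a log2 ratio of 0.76 ± 0.22 (scanner error). Its second probe read 21.5 and 55.5, a log2 ratio of 1.05 with an error of 0.29. Polk, a translesion DNA polymerase, read 302.7 and 585.3, a log2 ratio of 0.63, and at its dimmer probe, above background in ESAM-KO only, it was at least 2.20-fold higher. Rrm2b was thus higher at both of its probes. The dimmer probe of Polk has a ratio only because it differed, so it does not add to the brighter one. Rps27l, a ribosomal protein-like regulator of p53, read 1166 and 1838, a log2 ratio of 0.34. The 2 exact half-sites in its promoter begin at -210 and -107 bases from the start, and so are not 1 element. Ddb2, the damage sensor of nucleotide excision repair, read 719.5 and 802.8, a log2 ratio of -0.16 within the error of 0.20.

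The 5 genes of metabolism, autophagy and signalling included the lowest ratio of the list. Dram1 (NM_027878), a lysosomal membrane protein needed for autophagy after p53 activation, read 69.2 (WT) and 6.00 (ESAM-KO), where it was not well above background. It was at least 6.56-fold lower in ESAM-KO, a log2 ratio of -2.71. It stayed lower by more than 2-fold under the 9 other ways of processing that give it a ratio, but with normexp only barely, at -1.03. Since it was read by 1 spot of 1 probe, keeping outlier spots or averaging probes gave the same value and adds nothing. The neutrophil markers were lower on the same array, all 10 of them, among them S100a9 by 5.78-fold, Lcn2 by 11.3-fold and Ngp by 10.3-fold, and their part in the value of Dram1 was not tested. Fdxr, a mitochondrial ferredoxin reductase, read 728.3 (WT) and 518.4 (ESAM-KO), a log2 ratio of -0.81 ± 0.20 (scanner error). Ephx1, an epoxide hydrolase, read 119.2 and 146.6, a log2 ratio of -0.02, and its second probe was at background. Epha2, a receptor tyrosine kinase, read 3.29 and 3.41, and Tigar, a fructose bisphosphatase that limits glycolysis, read at most 3.25 in WT and 8.51 in ESAM-KO, neither well above background.

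The rest of the pathway was described by a list of 41 further genes, of which 37 were above background on both arrays. Of these, 21 were higher and 16 lower, where 48.5% of all genes above background on both arrays were higher. Their median log2 ratio was 0.05. Past 2-fold were 3 in each direction, beside 5.22% higher and 7.37% lower among all genes above background on both arrays. The number past 2-fold is thus near that of all genes, and the 6 genes are given below as values. p53 itself (Trp53) read 3589.9 (WT) and 3242 (ESAM-KO), a log2 ratio of -0.47 with an error of 0.20. Its inhibitors Mdm2 and Mdm4 had log2 ratios of 0.41 and 0.25. The apoptosis targets of the Bcl2 family differed in direction, with 0.36 for Bax and 0.44 for Pmaip1 (Noxa) but -0.54 for Bbc3 (Puma).

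Cdkn1a, the inhibitor p21 through which p53 arrests the cycle in G1, was the lowest of these 37 at the probe that stood for each gene. It read 346.9 (WT) and 129.9 (ESAM-KO), a log2 ratio of -1.74, or 3.33-fold lower. Its main probe was printed as 10 spots, which read 312.1 to 367.5 in WT and 121.2 to 146.5 in ESAM-KO, so that the spots of the arrays did not overlap. The log2 ratio over the spots was -1.74 ± 0.13 (SD over 10 spots of 1 array pair, a technical spread). A second, dim probe was above background in WT only, at least 1.49-fold lower. Xpc, a damage sensor of nucleotide excision repair, read 44.2 (WT) and 20.2 (ESAM-KO) at 1 spot, 2.72-fold lower. Both signals were dim. Its log2 ratio of -1.44, with a scanner error of 0.31, shrank to -0.61 in the weakest of the other settings. Tap1, a peptide transporter of antigen presentation, was 2.45-fold lower over 8 spots. The genes higher by more than 2-fold were Ccne1 (cyclin E1, 2.98-fold, and 3.10-fold at its second probe), Chek1 (the checkpoint kinase Chk1, 2.40-fold) and Rchy1 (a ubiquitin ligase for p53, 2.30-fold). Among 11 proliferation genes, a separate list, 9 were higher, beside 50.1% of all named genes with a ratio. Their median log2 ratio was 0.38, near the 0.37 of the p53 target genes. A median of that size was thus not particular to the p53 target genes. Of the 6 pathway genes past 2-fold, Cdkn1a and Ccne1 were past it under all 10 other ways of processing, Xpc, Chek1 and Rchy1 under 9, and Tap1 under 8.

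**Figure D4:**
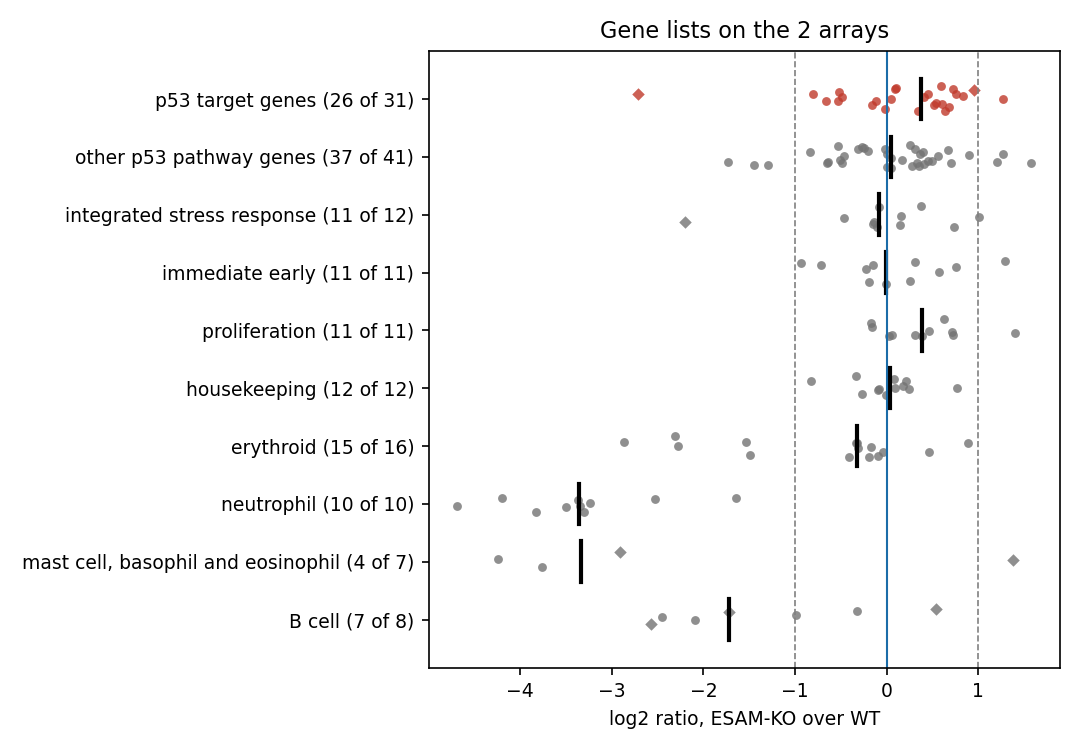
Log2 ratio of ESAM-KO over WT for each gene with a ratio (circles, diamonds for bounds) in 10 lists, with how many of how many had a ratio, black bars at the median, the blue line at the median of all named genes and dashed lines at 2-fold. The p53 target genes centre on 0.37, the proliferation genes on 0.38, the other p53 pathway genes on 0.05 and the neutrophil markers on -3.36.

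The median of the 26 genes was above that of all genes under each of the 10 other ways of processing. The distance between them was 0.37 as reported, and lay between 0.19 with normexp background correction and 0.55 without the filter on dim probes. The sign of 7 genes changed in at least 1 setting. Median scaling lowered every gene measured on both arrays by 0.13 and no scaling raised each by 0.32, and it was under these shifts alone that Ccng1 and Sesn2 fell below 0 and Gadd45a and Ddb2 came above it. Plk3 and Ephx1, both within 0.05 of 0 as reported, also turned under other settings, and Pml turned when its opposed probes were averaged. A sign that did not turn says mainly that the ratio lay further from 0 than these shifts.

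**Figure D5:**
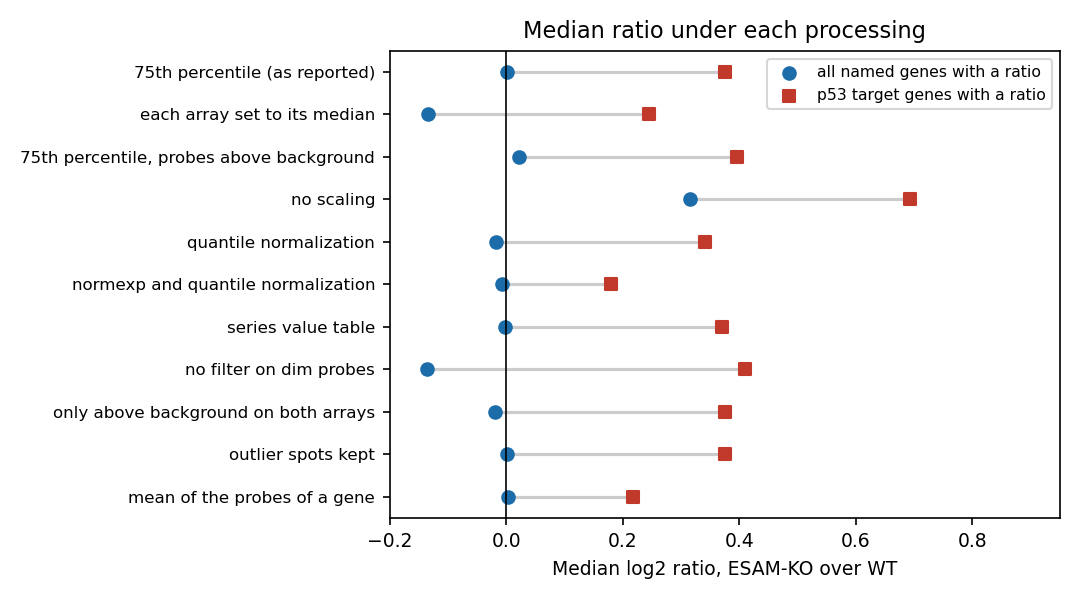
Median log2 ratio of ESAM-KO over WT of the p53 target genes with a ratio (squares) and of all named genes with a ratio (circles) under the processing reported and 10 others. Both medians shift together when the scaling changes, to 0.69 and 0.31 without scaling, and the squares stay right of the circles.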

How the data were processed

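For 1 array per genotype, the authors deposited a scanner file, made per the submitters' processing notes with Agilent Feature Extraction 10.10.1.1, which gives for each spot the background-subtracted intensity, its error and quality flags, and a series table of the same intensity rounded. The headers place both arrays on 1 slide and in 1 scan. The study compared the genotypes by a 2-fold criterion and names no scaling. Here control spots and 254 spots with an outlier flag on either array were left out, and the log2 intensity was set to the 75th percentile of its array. Spots of a probe were averaged, and a probe with more than 50% of its spots well above background counted as above it. Accessions were matched without versions to RefSeq names of GRCm38.p6 (27235 probes). Where a gene had several probes, the one of highest mean signal stood for it. The error of a ratio combines the scanner software's errors of both intensities. The counting was checked on simulated data. The alternatives were other scalings, normexp (offset 50, on median spot signals) with quantile normalization, the series table, other filters, outlier spots kept, the mean of probes, and 1.5-fold and 3-fold criteria. Python 3.11.15, pandas 2.3.3, numpy 2.4.6, R 4.3.3 and limma 3.58.1 were used. The genes, the roles and the lists were chosen with earlier results of these data known, all 31 genes are named, and of the further pathway genes those past 2-fold and 7 set regulators and targets.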

Additional observations from a re-analysis of the deposited data

How the results depend on the processing

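Without scaling between the arrays, the median log2 ratio of the p53 target genes moved from 0.37 to 0.69 and that of the other p53 pathway genes from 0.05 to 0.37, as all genes shifted with them. In that setting 6 target genes were higher by more than 2-fold, beside 12.7% of all genes. The number higher was 4 without the filter on dim probes and 0 with normexp, beside 8.71% and 1.67% of all genes, so it moved with the whole array. It was 9 by the 1.5-fold criterion, beside 15.6% of all genes, and 0 by the 3-fold criterion, for which the share of all genes was not taken. The number lower by more than 2-fold, 1, was 3 by the 1.5-fold criterion, beside 17.6% of all genes. It was 0 for genes above background on both arrays, which leaves out Dram1, beside 7.37% of all such genes. The count below 0, 9, was 6 without scaling and 12 with median scaling, where 71.0% and 40.8% of all genes lay above 0. Of 240 values of the 24 genes above background on both arrays under the alternatives, 32 moved by more than the scanner error of the gene, 24 of them by the uniform shift without scaling and the other 8 with normexp or the mean of probes. The bounds of Dram1 and Gdf15 have no such error. Signal over background limits 5 of the 31 genes, which have no ratio, and the number of arrays limits every value. No paired analysis was possible because the WT and ESAM-KO groups hold a single array each.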

Other observations

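Some of the p53 target genes also answer to other stress signals, and these companions were read on the same arrays. Sesn2, Gdf15 and Tnfrsf10b are also known targets of the integrated stress response, which works through the transcription factor Atf4. Of 12 genes of that response, 11 had a ratio, 5 above and 6 below 0, with a median log2 ratio of -0.08. Atf4 and Ddit3 (Chop) are named after their values were seen. Atf4 read 25070.2 (WT) and 34862 (ESAM-KO), a log2 ratio of 0.16, and Ddit3 stood at -0.08. Past 2-fold were Psat1, a serine synthesis enzyme, at 2.01-fold higher, and Vldlr, at least 4.59-fold lower. Btg2, Plk2, Plk3 and Gadd45a are also known as immediate early or acute stress genes. All 11 immediate early genes listed were above background on both arrays, 5 above and 6 below 0, with a median log2 ratio of -0.01, and Fos was the only one past 2-fold, at 2.44-fold higher. The share of the p53 target values that goes with either response was not tested.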
